A study of Homo sapiens with 4 samples.

Results

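The genes of sterol and fatty acid synthesis were examined in U251 cells, an established human glioblastoma (GBM) line, after knockdown of the protein arginine methyltransferase PRMT3. The set holds 43 genes of the 15575 in the count table, chosen by name for their place in lipid synthesis, its control by the SREBP factors, lipoprotein uptake and cholesterol efflux by the LXR receptors. RNA-seq was done on 2 control (Ctrl) and 2 PRMT3 knockdown (PRMT3-KD) libraries. Both groups were transduced with lentivirus, Ctrl with a control shRNA and PRMT3-KD with shRNA against PRMT3, and compared after 72 h, and the study grew the line in medium with serum. The labels give Ctrl cells the vector name pGreen, do not name the PRMT3 hairpin of either PRMT3-KD library, and do not say whether the 2 libraries of a group came from separate cultures, so p-values measure the spread between these libraries, which may be technical.

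Cholesterol is made from acetyl-CoA, first through the mevalonate arm to farnesyl diphosphate and then through squalene and a series of sterol intermediates, while fatty acids are made from the same precursor and then elongated and desaturated. The transcription factors SREBP1 and SREBP2, encoded by SREBF1 and SREBF2, are held in the endoplasmic reticulum by SCAP and the INSIG proteins when sterols are plentiful, and move to the Golgi and then the nucleus when sterols are scarce. The LXR receptors act at the other end, binding oxysterols and inducing cholesterol efflux through ABCA1 and decay of lipoprotein receptors through MYLIP. Proliferating cells in serum both make cholesterol and take it up from lipoproteins.

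SREBP factors bind sterol regulatory elements and usually act beside NF-Y, which binds the CCAAT box, so promoter windows were searched for both. A RefSeq window of 250 bases before to 50 after the start of the gene was found for 38 of the 43 genes. The CCAAT box (CCAAT on either strand) was in 23 of these 38 windows, against 34.6% of all 35116 RefSeq windows, and the sterol regulatory element in the form TCACNCCAC (either strand) in 1 of 38, that of SREBF2, against 1.13% of all windows. The E-box CACGTG, another sequence that SREBP1 can bind, was in 6 of 38 windows, against 7.26%. Each motif was counted apart, and matches of different motifs could overlap at their ends. These are matches of letters and not binding sites. The windows of 5 genes are printed because SREBF2 carries the sterol regulatory element, SCD, STARD4 and INSIG1 are genes in which the 2 PRMT3-KD libraries differed widely, and FDPS passed the test as lower. Each sequence is that of RefSeq for GRCh38.p14, written 5′ to 3′ along the gene and placed on GRCh37 by an exact match, with the CCAAT boxes of either strand and the sterol regulatory element in capitals.
SREBF2, plus strand, chr22:42228859-42229158: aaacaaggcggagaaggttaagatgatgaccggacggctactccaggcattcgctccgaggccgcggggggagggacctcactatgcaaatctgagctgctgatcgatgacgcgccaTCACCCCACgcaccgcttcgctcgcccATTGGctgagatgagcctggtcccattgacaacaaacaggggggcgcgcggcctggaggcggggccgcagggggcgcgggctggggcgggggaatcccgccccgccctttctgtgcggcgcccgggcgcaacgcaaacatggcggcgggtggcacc
SCD, plus strand, chr10:102106740-102107039: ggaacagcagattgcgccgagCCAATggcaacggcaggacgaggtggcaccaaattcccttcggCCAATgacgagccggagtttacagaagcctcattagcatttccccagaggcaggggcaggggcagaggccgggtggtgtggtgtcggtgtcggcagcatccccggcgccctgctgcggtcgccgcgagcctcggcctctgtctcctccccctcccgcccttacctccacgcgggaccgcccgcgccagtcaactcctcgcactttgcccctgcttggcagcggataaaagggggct
STARD4, minus strand, chr5:110848184-110848483: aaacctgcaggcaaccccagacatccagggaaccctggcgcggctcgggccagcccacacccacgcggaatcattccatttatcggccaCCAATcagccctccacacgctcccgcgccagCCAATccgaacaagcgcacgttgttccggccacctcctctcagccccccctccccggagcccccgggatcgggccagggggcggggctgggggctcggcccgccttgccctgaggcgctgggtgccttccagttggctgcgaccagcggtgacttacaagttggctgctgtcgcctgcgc
INSIG1, plus strand, chr7:155089338-155089637: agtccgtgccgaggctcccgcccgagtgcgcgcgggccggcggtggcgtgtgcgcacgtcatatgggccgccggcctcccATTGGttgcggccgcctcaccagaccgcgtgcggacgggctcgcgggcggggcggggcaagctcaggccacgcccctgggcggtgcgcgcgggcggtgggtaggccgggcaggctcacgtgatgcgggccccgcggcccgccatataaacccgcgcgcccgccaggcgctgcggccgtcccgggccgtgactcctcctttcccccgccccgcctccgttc
FDPS, plus strand, chr1:155278407-155278706: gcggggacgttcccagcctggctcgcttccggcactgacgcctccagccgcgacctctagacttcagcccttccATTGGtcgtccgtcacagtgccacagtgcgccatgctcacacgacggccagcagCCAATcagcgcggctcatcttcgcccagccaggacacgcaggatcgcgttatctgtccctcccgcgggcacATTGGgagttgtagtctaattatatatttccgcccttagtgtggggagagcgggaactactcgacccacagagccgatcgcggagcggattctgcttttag

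In SREBF2 the sterol regulatory element begins 133 bases before the start and the CCAAT box 106 bases before it. The 2 CCAAT boxes of SCD begin 229 and 186 bases before the start, those of STARD4 161 and 130 bases before it, and those of FDPS 176, 122 and 51 bases before it, while INSIG1 has 1 at 170 bases and an E-box at 55 bases.

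Counts per library ranged from 24804250 to 29756313. Levels are given as CPM, the count scaled to a common library size with edgeR's TMM factors, and groups were compared with edgeR's quasi-likelihood test over 13172 genes, with an adjusted p under 0.05 as the threshold. PRMT3 was counted 535 times in each Ctrl library, 77 times in PRMT3-KD 1 and 45 times in PRMT3-KD 2, a log2 fold change of -3.08 (SE 0.314, adjusted p = 0.0177, edgeR). The chi-square between the 2 Ctrl libraries was 1.42 times its degrees of freedom, little above counting error, and that between the 2 PRMT3-KD libraries was 66.4 times. All 8 glial and glioma markers checked were detected, from 49 to 80 counts for S100B to between 113123 and 149599 for VIM, and SOX9 was lower in PRMT3-KD. GFAP, the astrocyte filament, had 363 counts in Ctrl 1 but 32 and 153 in the PRMT3-KD libraries. Ctrl 2 was close to Ctrl 1 for GFAP, at 14.3 and 13.1 CPM, and GFAP did not pass the test (adjusted p = 0.0958, edgeR). No glial or glioma marker other than SOX9 passed. The estimates of VIM, NES, SOX2 and FABP7 were below 0, and those of S100B (0.19) and CD44 (0.001) above it. Of the markers of other cells, PTPRC of leukocytes stayed at 7 counts or fewer and CDH1 of epithelia at 4 or fewer, while CDH5 of endothelium was at 129 to 146 counts in 3 libraries and 722 in PRMT3-KD 2. CORO1A, the other leukocyte marker found, had 65 and 87 counts in Ctrl, 25 in PRMT3-KD 1 and 44 in PRMT3-KD 2. VWF, also of endothelium, had 65 and 57 counts in Ctrl, 30 in PRMT3-KD 1 and 70 in PRMT3-KD 2. The epithelial keratin gene KRT8 was higher in PRMT3-KD by a log2 fold change of 1.10 (adjusted p = 0.0248, edgeR) and KRT18 by one of 1.37 (adjusted p = 0.0192, edgeR), and the neuronal tubulin gene TUBB3 was lower by a log2 fold change of -0.62 (adjusted p = 0.0308, edgeR). SYP and SNAP25, the other neuronal markers tested, did not pass. On the log2 scale SYP stood at 0.16 (adjusted p = 0.828, edgeR) and SNAP25 at 0.08 (adjusted p = 0.892, edgeR). EPCAM, CD53, RBFOX3 and PECAM1 were not analysed here. The part of these markers in the lipid gene results was not tested, and in bulk RNA fewer cells of a kind cannot be told apart from less RNA per cell.

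After PRMT3 knockdown, most genes of lipid synthesis did not pass the test. The receptor NR1H2 (LXR-beta), the isoprenoid enzyme FDPS and the desaturase SCD5 fell, and the cholesterol exporter ABCA1 rose. Those 4 genes are 3 lower and 1 higher of the 42 tested, against 8.91% lower and 8.39% higher among all genes tested, and 4 of 42 in either direction against 17.3%. ABCG1, an exporter related to ABCA1, was under the filter on low counts, with 1 and 0 counts in Ctrl and 0 and 3 in PRMT3-KD libraries. The median log2 fold change of the 42 genes was -0.09, with 26 below 0 and 16 above, and the median of all genes was 0.005. Groups did not overlap, with both PRMT3-KD libraries on 1 side of both Ctrl libraries, for 20 of the 42 genes and for 67.1% of all genes tested. The 4 calls were lost without either Ctrl library, when 0 genes of the whole table passed and 2 of the 42 had an unadjusted p under 0.05 (edgeR). Without either PRMT3-KD library, when the spread came from the 2 Ctrl libraries alone, the 4 genes kept their direction. Groups did not overlap in any of the 4, so leaving out a library could hardly turn their direction. Across the fits that each left out 1 library, log2 fold changes ran from -0.84 to -0.56 for NR1H2 and -0.40 to -0.38 for FDPS. Those of SCD5 ran from -0.50 to -0.42 and those of ABCA1 from 0.55 to 0.98.

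**Figure D1:**
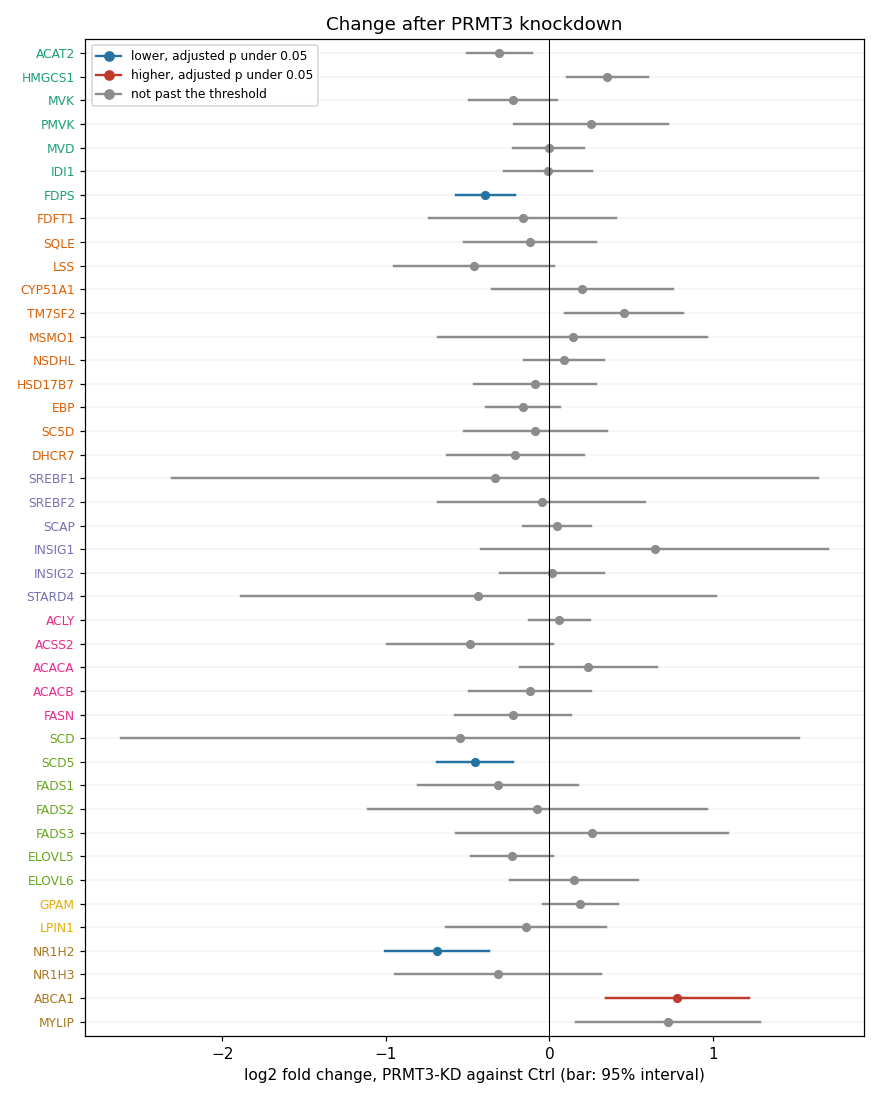
Log2 fold change of each tested gene (x axis, PRMT3-KD against Ctrl, edgeR) with its 95% interval as a bar and genes on the y axis, grouped by role. FDPS, SCD5 and NR1H2 in blue and ABCA1 in red passed the threshold, and the interval of SCD is the widest, from -2.62 to 1.52.

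The 2 PRMT3-KD libraries parted over many of these genes. PRMT3-KD 1 was below PRMT3-KD 2 for 32 of the 42 genes (76.2%), against 46.4% of all genes tested, with a median log2 difference of -0.36 between the libraries, against 0.03 for all genes. In the mevalonate arm PRMT3-KD 1 was the lower for 3 of 7 genes (42.9%), with a median log2 difference of 0.001. In 15 of the 42 genes PRMT3-KD 1 lay below both Ctrl libraries while PRMT3-KD 2 lay above both, a pattern of 9.83% of all genes. By over 1.5-fold, PRMT3-KD 1 was lower than PRMT3-KD 2 for 9 genes (9.34% of all genes) and higher for 0 genes (7.63% of all genes). The 9 genes were SCD, SREBF1, STARD4, INSIG1, FADS2, FADS3, MSMO1, SREBF2 and FDFT1, the last at 1.53-fold, with CYP51A1 next, just outside at a log2 difference of -0.58. With 1 library on each side there is no replicate of this difference and no test of it. It changed with the scaling. On library totals alone PRMT3-KD 1 was below PRMT3-KD 2 for 26 of the 42 genes, with a median log2 difference of -0.26. The pattern of below and above then held for 10 of the 42 genes and 6.92% of all genes. PRMT3 itself was lower in PRMT3-KD 2 than in PRMT3-KD 1, at 1.58 and 3.03 CPM, and the part of this in the gap was not tested.

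**Figure D2:**
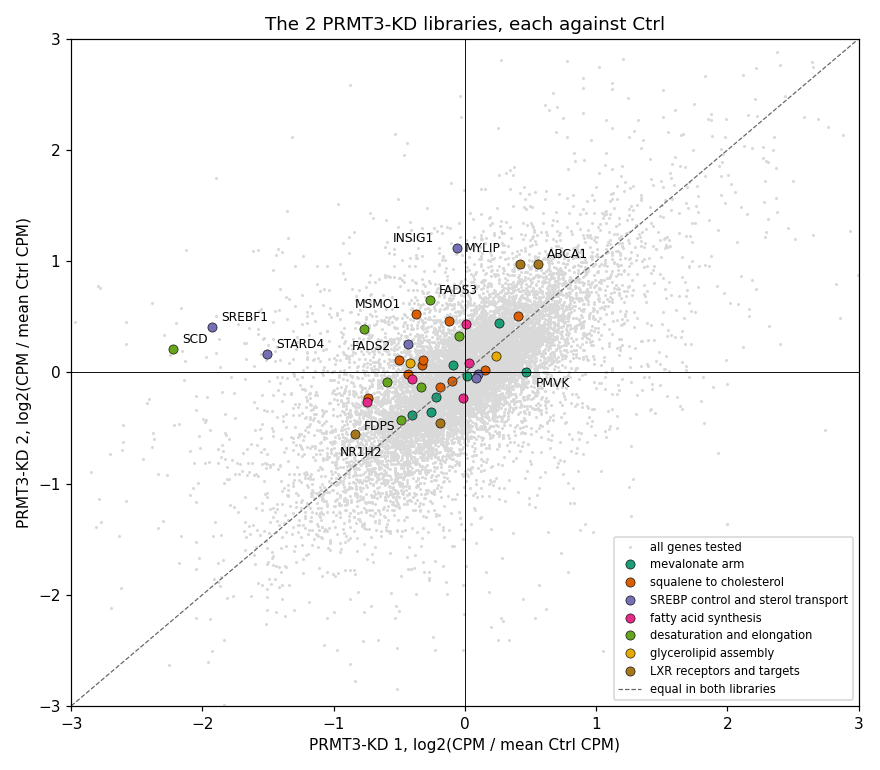
Log2 ratio to the Ctrl mean in PRMT3-KD 1 (x axis) and in PRMT3-KD 2 (y axis), with all tested genes in grey (those beyond 3 on either axis, or at 0 counts in a group, are not shown), lipid genes coloured by role and a dashed line where both libraries are equal. SCD, SREBF1 and STARD4 lie far to the left at -2.23, -1.93 and -1.51 in PRMT3-KD 1 and above 0 in PRMT3-KD 2, while ABCA1 is above 0 and NR1H2 below 0 in both.

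**Figure D3:**
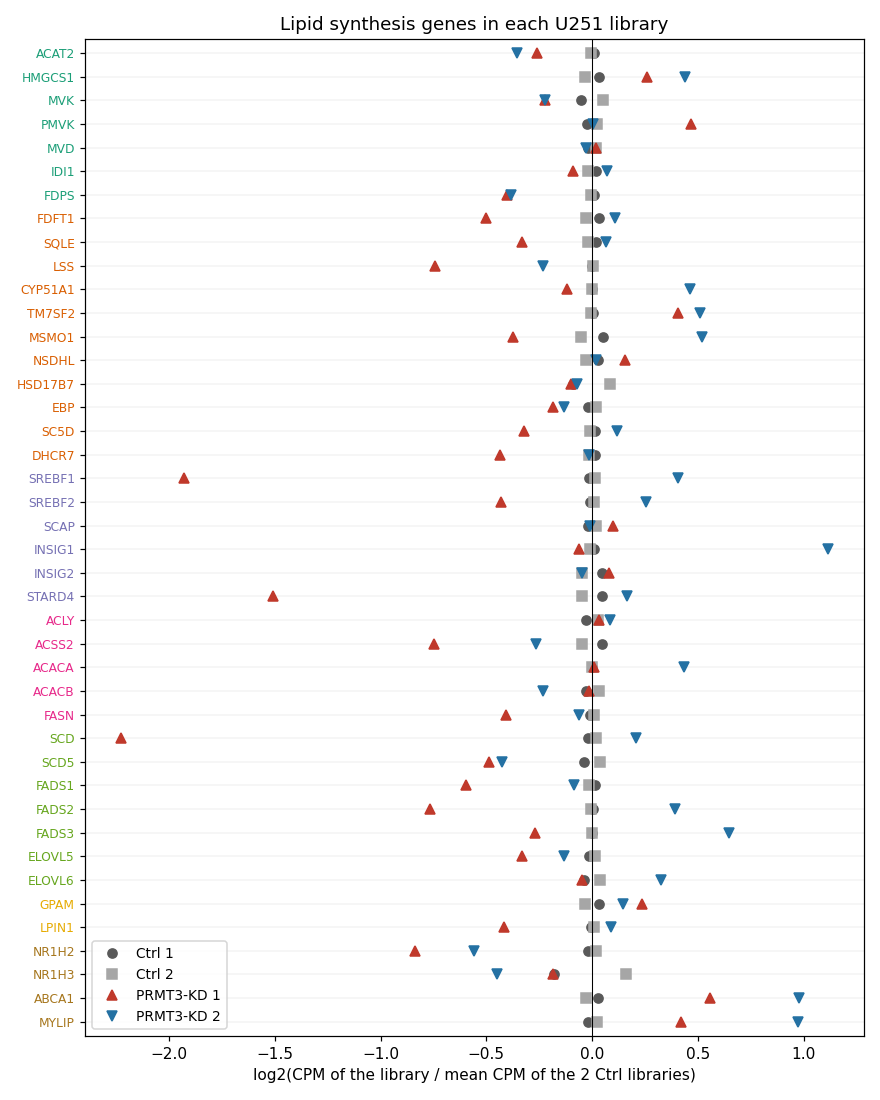
Each of the 42 tested genes (y axis, grouped by role) in the 4 libraries, as log2 of the library's CPM over the mean of the 2 Ctrl libraries (x axis). Ctrl points sit together near 0, and the red triangles of PRMT3-KD 1 stand left of the blue triangles of PRMT3-KD 2 for 32 genes.

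Among the genes of SREBP control, 0 of 6 passed the test in either direction, and 4 of the 6 had PRMT3-KD 1 below and PRMT3-KD 2 above both Ctrl libraries. SREBF1 (ENSG00000072310, GRCh37 chr17:17713713-17740316, minus strand), which encodes the factor that favours fatty acid genes, was at 88.6 and 90.5 CPM in Ctrl, 23.5 CPM in PRMT3-KD 1 and 118 CPM in PRMT3-KD 2. PRMT3-KD 1 was thus at 26.3% of the Ctrl mean and PRMT3-KD 2 above it, so the groups overlap. Its log2 fold change was -0.33 (SE 0.740, adjusted p = 0.777, edgeR), and its exons overlap those of RAI1 on the other strand, whose reads cannot be told apart from its own if strand was not counted. SREBF2, for the factor that favours cholesterol genes, was at 183 and 185 CPM in Ctrl, 136 CPM in PRMT3-KD 1 and 219 CPM in PRMT3-KD 2, the same order with a smaller gap.

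INSIG1 (ENSG00000186480, chr7:155089486-155101945, plus strand), a retention factor that SREBP itself induces, was at 88.8 and 87.8 CPM in Ctrl, 84.5 CPM in PRMT3-KD 1 and 191 CPM in PRMT3-KD 2. One PRMT3-KD library was close to Ctrl and the other was 2.17-fold above it. The log2 fold change was 0.64 (SE 0.397, adjusted p = 0.306, edgeR). STARD4 (ENSG00000164211, chr5:110831731-110848288, minus strand), a cytosolic sterol carrier, was at 22.6 and 21.1 CPM in Ctrl, 7.68 CPM in PRMT3-KD 1 and 24.5 CPM in PRMT3-KD 2. It shows the order seen for SREBF1, and its log2 fold change was -0.44 (SE 0.545, adjusted p = 0.604, edgeR). The paralog INSIG2 and the escort protein gene SCAP were close to Ctrl in both libraries. The log2 fold change of INSIG2 was 0.02 with a 95% interval of -0.30 to 0.34, and turned to -0.01 on library totals, and that of SCAP was 0.05 with an interval of -0.16 to 0.25.

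**Figure D4:**
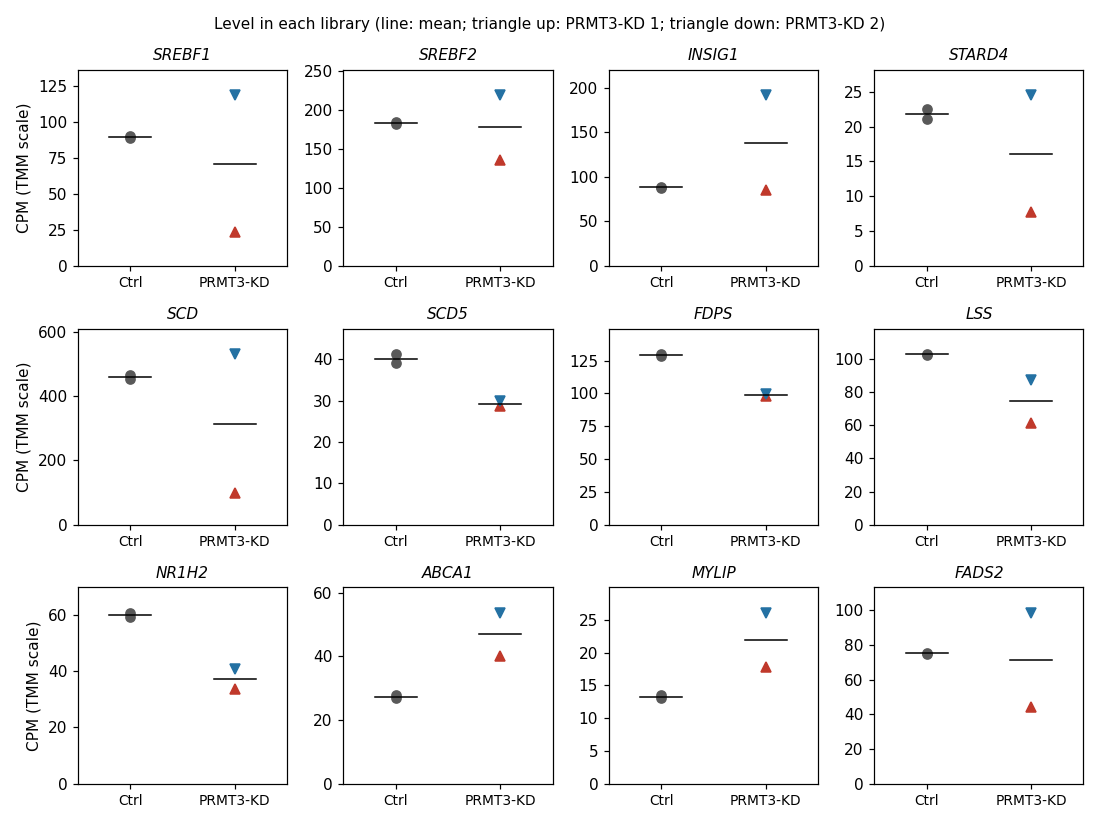
CPM on the TMM scale (y axis, from 0) of 12 genes in the Ctrl libraries (grey circles) and in PRMT3-KD 1 (red) and PRMT3-KD 2 (blue), with a line at each group's mean. The 2 PRMT3-KD points straddle Ctrl for SREBF1, SREBF2, STARD4, SCD, FADS2 and INSIG1, both lie below Ctrl for FDPS, SCD5, LSS and NR1H2, and both lie above it for ABCA1 and MYLIP.

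In the mevalonate arm, 1 of 7 genes passed the test. FDPS (ENSG00000160752, chr1:155278539-155290457, plus strand), which makes the farnesyl diphosphate shared by sterols and prenylated proteins, was at 130 and 129 CPM in Ctrl, 98.0 CPM in PRMT3-KD 1 and 99.3 CPM in PRMT3-KD 2. The PRMT3-KD libraries were alike and both lower, with a log2 fold change of -0.39 (SE 0.0671, adjusted p = 0.0317, edgeR). The annotation names 8 FDPS pseudogenes that could share its reads. HMGCS1, which makes HMG-CoA at the head of the arm, was at 112 and 107 CPM in Ctrl and 131 and 148 CPM in PRMT3-KD libraries (log2 fold change 0.35, SE 0.0923, adjusted p = 0.0661, edgeR). ACAT2, the cytosolic thiolase before it, went the other way, from 103 and 102 CPM to 85.4 and 80.0 CPM (log2 fold change -0.31, SE 0.0747, adjusted p = 0.0586, edgeR), and its exons overlap those of TCP1 on the other strand. Neither passed the threshold with edgeR, although both PRMT3-KD libraries lay outside Ctrl in each, and HMGCS1 passed as higher with limma-voom (adjusted p = 0.0413). MVD and IDI1, which form and isomerise isopentenyl diphosphate, had log2 fold changes of -0.0050 and -0.0082 with 95% intervals of -0.22 to 0.21 and -0.28 to 0.26. The kinase genes MVK and PMVK were at -0.22 and 0.25, without passing the test (adjusted p = 0.187 and 0.358, edgeR). Reads of IDI1 could be shared with 3 named pseudogenes, and exons of MVK and IDI1 overlap those of MMAB and IDI2-AS1 on the other strand.

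From squalene to cholesterol, 0 of 11 genes passed the test. The most displaced were LSS and TM7SF2, in opposite directions. LSS (ENSG00000160285, chr21:47608055-47648738, minus strand), which closes the sterol ring, was at 103 CPM in both Ctrl libraries, 61.6 CPM in PRMT3-KD 1 and 87.7 CPM in PRMT3-KD 2 (log2 fold change -0.46, SE 0.183, adjusted p = 0.148, edgeR), and passed as lower with limma-voom (adjusted p = 0.0396). TM7SF2 (ENSG00000149809, chr11:64879317-64883856, plus strand), a sterol C14 reductase, was at 6.42 and 6.40 CPM in Ctrl and 8.50 and 9.12 CPM in PRMT3-KD libraries (log2 fold change 0.46, SE 0.135, adjusted p = 0.0846, edgeR), and it overlaps exons of VPS51 on the same strand. In both genes the groups did not overlap. For 10 of the 11 genes PRMT3-KD 1 was below PRMT3-KD 2, the exception being NSDHL, a C4 decarboxylating dehydrogenase. MSMO1, the C4 methyl oxidase, showed the widest gap of the arm, with 50.7 and 47.1 CPM in Ctrl, 37.7 CPM in PRMT3-KD 1 and 70.2 CPM in PRMT3-KD 2. FDFT1 (squalene synthase), SQLE (squalene epoxidase), CYP51A1 (C14 demethylase) and SC5D (C5 desaturase) likewise had PRMT3-KD 1 below and PRMT3-KD 2 above both Ctrl libraries. Their log2 fold changes between groups were -0.16, -0.12, 0.20 and -0.09, with SE of 0.151 to 0.215. CYP51A1 has 3 named pseudogenes and overlaps AKAP9 on the other strand, and HSD17B7 has 2 named pseudogenes. DHCR7, EBP, NSDHL and HSD17B7, of the later steps, had log2 fold changes between -0.21 and 0.09 and adjusted p of 0.246 to 0.688 (edgeR).

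In fatty acid synthesis itself, 0 of 5 genes passed the threshold. ACLY, which makes cytosolic acetyl-CoA from citrate, was at 317 and 329 CPM in Ctrl and 331 and 343 CPM in PRMT3-KD libraries, a log2 fold change of 0.06 with a 95% interval of -0.13 to 0.25. FASN, the fatty acid synthase, was at 364 and 368 CPM in Ctrl, 276 CPM in PRMT3-KD 1 and 351 CPM in PRMT3-KD 2, lower in both but not past the test (log2 fold change -0.22, SE 0.133, adjusted p = 0.290, edgeR). The carboxylase genes ACACA and ACACB were at 0.24 and -0.12 (adjusted p = 0.335 and 0.578, edgeR). ACSS2 (ENSG00000131069, chr20:33459949-33515765, plus strand), which makes acetyl-CoA from acetate, was at 18.0 and 16.8 CPM in Ctrl, 10.4 CPM in PRMT3-KD 1 and 14.5 CPM in PRMT3-KD 2. It had the lowest estimate of the 5, -0.48 (SE 0.191, adjusted p = 0.147, edgeR).

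The 2 stearoyl-CoA desaturases, which place the first double bond in saturated fatty acids, are given side by side. SCD (ENSG00000099194, chr10:102106990-102124583, plus strand) was at 455 and 467 CPM in Ctrl, 98.4 CPM in PRMT3-KD 1 and 532 CPM in PRMT3-KD 2. The 2 PRMT3-KD libraries differed 5.40-fold, the widest gap of the 42 genes and at percentile 0.334 of all genes tested, and its log2 fold change of -0.55 carried an SE of 0.776 (adjusted p = 0.647, edgeR). SCD has 1 named pseudogene. SCD5 (ENSG00000145284, chr4:83550692-83719949, minus strand), the paralog, was at 39.1 and 41.3 CPM in Ctrl, 28.7 CPM in PRMT3-KD 1 and 29.9 CPM in PRMT3-KD 2. Both PRMT3-KD libraries were lower and close to each other (log2 fold change -0.46, SE 0.0868, adjusted p = 0.0374, edgeR), a call that limma-voom did not make (adjusted p = 0.0547). Whether the changes of SCD and SCD5 differ was not tested.

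All 7 genes of desaturation and elongation were lower in PRMT3-KD 1 than in PRMT3-KD 2, and SCD5 was the 1 that passed the test. FADS2, the delta-6 desaturase of polyunsaturated fatty acids, was at 75.5 and 74.8 CPM in Ctrl, 44.1 CPM in PRMT3-KD 1 and 98.6 CPM in PRMT3-KD 2. FADS3, a neighbouring desaturase gene, was at 66.6 and 66.4 CPM in Ctrl, 55.2 CPM in PRMT3-KD 1 and 104 CPM in PRMT3-KD 2. Both straddle Ctrl, whereas FADS1, the delta-5 desaturase, was below it in both, with 96.4 and 94.3 CPM in Ctrl and 63.1 and 89.9 CPM in PRMT3-KD libraries (log2 fold change -0.32, SE 0.184, adjusted p = 0.281, edgeR). Exons of FADS1 and FADS2 overlap on opposite strands, and those of FADS2 also overlap FEN1 on its own strand. Of the elongase genes, ELOVL5 stood at -0.23 (adjusted p = 0.160, edgeR) and ELOVL6 at 0.15 (adjusted p = 0.500, edgeR) on the log2 scale. In glycerolipid assembly, GPAM, the mitochondrial acyltransferase of the first step, was at 0.19 and LPIN1, a phosphatidate phosphatase, at -0.14 (adjusted p = 0.190 and 0.616, edgeR).

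The LXR receptors and their targets held 2 of the 4 genes past the threshold, in opposite directions. NR1H2 (ENSG00000131408, chr19:50832910-50886645, plus strand), the widely expressed LXR-beta, was at 59.2 and 60.6 CPM in Ctrl, 33.5 CPM in PRMT3-KD 1 and 40.7 CPM in PRMT3-KD 2. Both PRMT3-KD libraries were well below Ctrl (log2 fold change -0.69, SE 0.119, adjusted p = 0.0320, edgeR), and its exons overlap those of NAPSA on the other strand. ABCA1 (ENSG00000165029, chr9:107543287-107690436, minus strand), an LXR target that loads cholesterol onto apolipoproteins, was at 27.8 and 26.8 CPM in Ctrl, 40.1 CPM in PRMT3-KD 1 and 53.6 CPM in PRMT3-KD 2. It was higher in both (log2 fold change 0.78, SE 0.163, adjusted p = 0.0440, edgeR). MYLIP (ENSG00000007944, chr6:16129317-16148479, plus strand), the ubiquitin ligase that removes lipoprotein receptors and another LXR target, moved to the same side, from 13.1 and 13.5 CPM in Ctrl to 17.8 CPM in PRMT3-KD 1 and 26.0 CPM in PRMT3-KD 2. It missed the threshold with edgeR (log2 fold change 0.73, SE 0.210, adjusted p = 0.0815) and passed as higher with DESeq2 (adjusted p = 0.0251) and limma-voom (adjusted p = 0.0273). NR1H3 (LXR-alpha) was low, with 79 and 99 counts in Ctrl and 72 and 67 in PRMT3-KD libraries (log2 fold change -0.31, SE 0.236, adjusted p = 0.391, edgeR), and its exons overlap those of ACP2 on the other strand.

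Levels were compared between genes as CPM per kilobase of the canonical GENCODE transcript. ELOVL5 was the highest in Ctrl, at 187 ± 2.81 (SD, n = 2), followed by FDPS at 91.3 ± 0.596 and SCD at 87.8 ± 1.66. After these came ACLY at 75.3 ± 1.96 and FDFT1 at 72.4 ± 2.17, with overlapping ranges of mean ± SD. Of the 42 tested genes, the lowest were NR1H3 at 1.74 ± 0.286 and ACACB, the mitochondrial carboxylase, at 1.09 ± 0.033. SCD and SREBF1 each stood at a different place in this order in the 2 PRMT3-KD libraries. SCD was at 18.8 in PRMT3-KD 1, under INSIG1 at 29.1, and above FDPS, itself at 70.1, in PRMT3-KD 2. Per kilobase, SREBF1 stood at 4.80 in PRMT3-KD 1, under SQLE at 15.5, and at 24.2 in PRMT3-KD 2, above SQLE at 20.4. SREBF2 was above SREBF1 in both, at 26.0 in PRMT3-KD 1 and 41.9 in PRMT3-KD 2.

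A second list of 94 lipid genes outside the set was read in the same fit, of which 89 were in the table, covering other SREBP machinery, sterol enzymes and transport, fatty acid elongation and activation, glycerolipid assembly and fatty acid oxidation. Of its 82 tested genes, 6 were lower and 10 higher, beside 8.91% lower and 8.39% higher of all genes tested, and the median log2 fold change was 0.135, beside -0.086 for the 42 genes. LRP8, a lipoprotein receptor of the brain, fell by 1.29 in log2 terms (adjusted p = 0.0262, edgeR), from 112 and 121 CPM in Ctrl to 56.7 and 39.1 CPM in PRMT3-KD libraries. ERLIN1 fell by 1.21 (adjusted p = 0.0150), from 123 CPM in both Ctrl libraries to 57.5 and 49.0 CPM, while its partner ERLIN2 rose by 0.87 (adjusted p = 0.0436), from 57.7 and 58.5 CPM to 124 and 88.0 CPM. The erlins are endoplasmic reticulum proteins that take part in sterol-regulated protein decay, and these 2 genes passed the test on opposite sides. CPT1B, DGAT1 and ACADVL act in fatty acid import into mitochondria, the last step of triglyceride synthesis and very-long-chain oxidation. They were lower, at log2 fold changes of -0.92 for CPT1B, -0.70 for DGAT1 and -0.66 for ACADVL (edgeR, adjusted p of 0.0363, 0.0235 and 0.0250). CPT1A, the paralog with a Ctrl mean of 103 CPM against 6.21 CPM for CPT1B, did not pass. Its log2 fold change was 0.13 (adjusted p = 0.767, edgeR), with PRMT3-KD 1 above both Ctrl libraries and PRMT3-KD 2 below both.

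The other increases that passed the test with the largest estimates were those of ELOVL7, NPC1, CYP46A1 and ACSL4. NPC1, which exports cholesterol from lysosomes, rose from 36.5 and 36.8 CPM to 80.6 CPM in PRMT3-KD 1 and 60.5 CPM in PRMT3-KD 2 (log2 fold change 0.95, SE 0.159, adjusted p = 0.0307, edgeR). ELOVL7, an elongase, rose by 1.20, CYP46A1, the cholesterol 24-hydroxylase of brain, by 0.82, and ACSL4, which activates polyunsaturated fatty acids, by 0.69 in log2 terms (edgeR, adjusted p of 0.0447, 0.0470 and 0.0172). In sterol transport, NPC1 and LRP8 were the 2 of 12 tested genes of the list that passed, 1 in each direction. As for the gap between the PRMT3-KD libraries, this list had PRMT3-KD 1 below PRMT3-KD 2 for 44 of 82 genes (53.7%) and 13 of 82 (15.9%) below Ctrl in the first and above it in the second. No test of the 2 lists against each other was made.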

How the data were processed

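RNA-seq counts of 2 Ctrl and 2 PRMT3-KD U251 libraries were analysed, with groups and replicate numbers taken from the labels. The authors aligned reads to hg19 with TopHat and deposited whole-number read counts per gene, made with Cufflinks, without normalization. Tool versions, gene annotation and strand setting are not given in the sources used here. 1 duplicate row was removed, 15575 genes remained, and 99.9% of identifiers matched GENCODE 44 lifted to GRCh37. Counts per library of 24804250 to 29756313 set the counting precision, which is lowest for genes with few counts.

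In R 4.3.3, edgeR 4.0.16 was run with filterByExpr (minimum count 10, minimum total 15), TMM, glmQLFit and glmQLFTest, with Benjamini-Hochberg adjustment across the 13172 genes that passed. An exact permutation test of 2 against 2 libraries cannot go below p = 0.333, so none was used. SE was derived from the fold change and the F statistic. The fit was run on simulated data with 200 changed genes, of which 152 were called, beside 12 false calls. The simulation gave both groups the same spread, unlike these libraries, so it cannot tell how the calls fare under unequal spread. Alternatives were DESeq2 1.42.0, limma 3.58.1 (voom with group weights), other scalings and filters, a replicate block and leaving out each library. The members, their roles and the lists were chosen with earlier results of these data known. Every one of the 43 genes could be named. Values in each library were set for genes past the threshold or among the 10 largest fold changes, and for others with wide gaps between PRMT3-KD libraries after their values were seen. Motifs and positions came from RefSeq windows and GENCODE exons. Of the second list, the 5 largest called increases and decreases were named, with CPT1A given beside CPT1B.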

Additional observations from a re-analysis of the deposited data

How the results depend on the processing

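Of the 42 genes, 41 kept their direction under the 7 alternatives that keep all 4 libraries, and INSIG2 turned to -0.013 on library totals alone. With DESeq2, 2 of the lipid synthesis genes were higher (ABCA1 and MYLIP), and with limma-voom 3 (ABCA1, MYLIP and HMGCS1), while LSS was gained as lower and SCD5 lost. Of all 13172 genes tested, 2278 passed in the main fit, 2788 with DESeq2 and 2864 with limma-voom. On library totals 1725 of all genes passed, and with the replicate block 1656. A fold limit of 1.5 beside the adjusted p left 1441 genes in all, 1 lipid synthesis gene lower and 6 genes of the second list higher, and library totals left 5 of the second list higher. Same-numbered libraries did not deviate together (correlation 0.038), so the numbers were not taken as pairs, and with the replicate block 1 lipid synthesis gene was lower (NR1H2), FDPS and SCD5 being lost at adjusted p of 0.0761 and 0.0721, and 6 of the second list were higher. Leaving out each library in turn, where the lone library is assumed to vary like the other group, gave 0 to 8841 genes called, 0 to 24 lipid synthesis genes lower and 0 to 19 higher, 0 to 26 of the second list lower and 0 to 42 higher, and a PRMT3 log2 fold change of -3.61 to -2.68. Without Ctrl 1 or Ctrl 2 no gene passed with edgeR, 1842 and 1868 genes having an unadjusted p under 0.05, and other tools were not run on 3 libraries. In these fits 23 of the 42 genes kept their direction, and 19 did not, with log2 fold changes of CYP51A1 from -0.12 to 0.47, ELOVL6 from -0.051 to 0.33, FADS2 from -0.77 to 0.39, FADS3 from -0.27 to 0.65, FDFT1 from -0.51 to 0.11, HSD17B7 from -0.17 to 0.00011, IDI1 from -0.095 to 0.071, INSIG1 from -0.067 to 1.12, INSIG2 from -0.048 to 0.076, LPIN1 from -0.42 to 0.091, MSMO1 from -0.38 to 0.52, MVD from -0.026 to 0.014, SC5D from -0.32 to 0.12, SCAP from -0.0089 to 0.10, SCD from -2.23 to 0.21, SQLE from -0.33 to 0.069, SREBF1 from -1.93 to 0.41, SREBF2 from -0.43 to 0.26 and STARD4 from -1.51 to 0.17. Other scalings of the gap between PRMT3-KD libraries were added after seeing the data, and 10 genes lay below and above Ctrl on library totals and 15 with upper-quartile scaling. Depth limits NR1H3 and ABCG1 most.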
